A study of Homo sapiens with 6 samples.

Results

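The genes described here encode the subunits of the BAF (SWI/SNF) chromatin remodellers, together with the remaining human genes named SMARC or ARID. They were picked out by gene symbol among protein-coding genes of the deposited table, as SMARC, ARID, BCL7, ACTL6 and DPF genes plus PBRM1, BRD7, BRD9, PHF10, SS18, BICRA and BICRAL. This gave 37 of the 29538 genes in the table, and 36 of the 16412 genes that passed the filter on low counts. The gene left untested was ARID3C. It had 2, 0 and 2 counts in siBYSL 1 to 3, against 3, 3 and 5 counts in siNC 1 to 3. ACTL6B, which these symbols would include, was not among the 37 genes found. The family was chosen by its gene names but with the values of this same comparison already known, BCL7A among them. Fold changes and calls of its genes are therefore given as a description taken from a test over all genes, and no test was made of the family as a group.

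The libraries came from MDA-MB-231, an established human line of invasive, triple-negative breast cancer cells. Cultures received either an siRNA against BYSL (siBYSL, 3 libraries) or a negative-control siRNA (siNC, 3 libraries), at 160 pmol per well with Lipofectamine RNAiMAX, and RNA was taken at 48 h. BYSL encodes bystin, a factor in the assembly of the small ribosomal subunit. The replicates of each group were labelled biological replicates; all are cultures of 1 line, and BYSL was targeted by 1 siRNA, so loss of BYSL and other actions of that siRNA cannot be told apart. Strand-specific poly(A) RNA-seq was read as gene counts.

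BAF complexes use the energy of ATP to slide or eject nucleosomes, which opens enhancers and promoters to transcription factors. A single ATPase, SMARCA4 (BRG1) or its paralogue SMARCA2 (BRM), is joined to core subunits, and further subunits define the canonical form (cBAF, with an ARID1 and a DPF protein), the polybromo form (PBAF, with PBRM1, ARID2, BRD7 and PHF10) and the non-canonical form (ncBAF, with BRD9 and BICRA or BICRAL). Several subunits are products of paralogous genes of which a complex takes one at a time, and genes for BAF subunits are often mutated in human tumours. The ARID proteins share an AT-rich interaction domain that binds DNA, and only some of them are BAF subunits. Other SMARC genes encode remodellers that act outside BAF.

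Library totals lay between 27754883 and 32088817 counts in siBYSL and between 28606048 and 30476744 in siNC. BYSL fell to 16.3 ± 0.943 CPM in siBYSL, against 99.9 ± 4.93 CPM in siNC (CPM, counts scaled to library size, SD, n = 3 each; log2 fold change -2.61, SE 0.067, edgeR quasi-likelihood test with Benjamini-Hochberg adjustment, adjusted p = 9.4e-09). Library siBYSL 3 stood apart, with a chi-square per degree of freedom of 22 against siBYSL 1 and 13.5 against siBYSL 2, where siBYSL 1 and 2 gave 3.42; values without it are given beside the called members and totals that it moved most. Of the markers listed for the line, VIM, CD44, FN1, AXL and CAV1 were abundant, with means of 387 to 2085 CPM in siBYSL and 267 to 2404 CPM in siNC, whereas SPARC was near 0 in both groups at 0.436 and 0.837 CPM. The hormone receptor gene ESR1 averaged 0.0303 CPM in siBYSL and 0.0238 CPM in siNC. The epithelial genes CDH1 (9.18 CPM in siBYSL and 4.48 in siNC) and EPCAM (20.9 and 14.4 CPM) were called higher in siBYSL. The 5 abundant markers were called too, in both directions, with CD44 (log2 fold change 0.19) and FN1 (0.54) higher and VIM (-0.21), CAV1 (-0.47) and AXL (-0.51) lower. Of the other genes listed as low in the line, PGR averaged 0.28 CPM in siBYSL and 0.257 CPM in siNC and GATA3 14.1 and 13.3 CPM, but KRT8 was abundant at 719 and 705 CPM. The 10 markers of other cell types found in the table summed to 29.4 to 33.3 CPM in siBYSL and 25.7 to 28.1 CPM in siNC, and 6 of these 10 averaged under 1 CPM. The part of these shifts in the results below was not tested.

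Because BYSL was targeted with a single duplex, its sequence is shown with the members of the family whose 3′ UTR pairs with its seed. The guide strand, written with its RNA bases and a 3′ tt overhang as given in the labels, carries the seed, bases 2 to 8, in capitals. The sites are 30-base windows of the 3′ UTR in transcript sense, with the heptamer GCTGAAT that is complementary to the seed in capitals, from GENCODE 29 on GRCh38. They lie at chr17:40625292-40625321 (minus strand, SMARCE1), chr16:50318451-50318480 (minus strand, BRD7) and chr14:58372348-58372377 (plus strand, ARID4A).
BYSL siRNA guide: uAUUCAGCaacgucaucuctt
SMARCE1 site: agaagaaatcgtGCTGAATtataatgtggc
BRD7 site: aatggtgattttGCTGAATcggtatagaac
ARID4A site: aaatattacccaGCTGAATagttactgctg
These 3 genes were 8.33% of the 36 members, while the heptamer was found in 11.8% of the 13072 tested genes for which a 3′ UTR was annotated. SMARCE1 was called higher, ARID4A was called lower and BRD7 was not called, so the members with a site did not share a direction. Among all tested genes, the site was present in 8.99% of those called higher, 19.1% of those called lower and 10.2% of those not called. A match is a description of these letters, and whether the siRNA acts on any of the 3 transcripts was not tested. Of the 5 members called lower, the other 4 (SMARCD2, DPF3, ARID2 and ARID3B) had no such heptamer in the longest annotated 3′ UTR.

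Across the family, small rises in BAF subunits were more numerous than falls. At an adjusted p under 0.05, 12 of 36 members rose in siBYSL (33.3%) and 5 fell (13.9%), while 19 were not called. With libraries scaled by their totals alone, 15 rose and 4 fell. Over all 16412 genes the same test called 36.9%, with 18.5% called higher and 18.4% called lower; with library totals, 67.4% of the calls over all genes were higher, against 50% here. The siBYSL values were all above the siNC values in 15 members (41.7%, against 24.7% of all genes) and all below in 5 (13.9%, against 24.9% of all genes), and the groups overlapped in the other 16. Since the family was picked with these values known, nothing is read from the distance between its shares and those of all genes. In bulk RNA, a change in the mix of cells and a change of RNA per cell cannot be told apart.

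Most shifts were modest. The median log2 fold change over the 36 members was 0.079, beside 0.007 over all genes tested, and single members ran from -0.69 to 1.22. Only BCL7A moved by 1 or more on the log2 scale, as did 513 of the 6059 genes called over the whole table. The 26 BAF subunits, which are most of the 36 members, held 10 of the 12 rises and 3 of the 5 falls, with a median of 0.092. That is 38.5% and 11.5% of the 26, beside 18.5% and 18.4% of all genes. The 10 genes outside BAF had 2 rises and 2 falls (20% each), with a median of -0.053. Without siBYSL 3, 16 members were called higher and 6 lower, when 23.5% and 24.3% of all genes were called in those directions. The 5 calls gained were SMARCA1 (adjusted p = 7.78e-06), ARID1B (0.0171), PHF10 (0.0222) and SMARCD1 (0.0326), all higher in siBYSL, and ARID5A (0.0281), lower in siBYSL. Leaving out any 1 of the other 5 libraries gave fewer rises and no more falls than all 6 did. Without siNC 3, 6 members were higher and 3 lower; without siBYSL 2, 7 and 3; without siNC 1, 7 and 5; without siNC 2, 9 and 3; and without siBYSL 1, 9 and 5. Over all genes, 12.6% to 16.7% were then called higher and 12.5% to 17% lower. Calls lost when another library was left out are named with each gene.

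**Figure D1:**
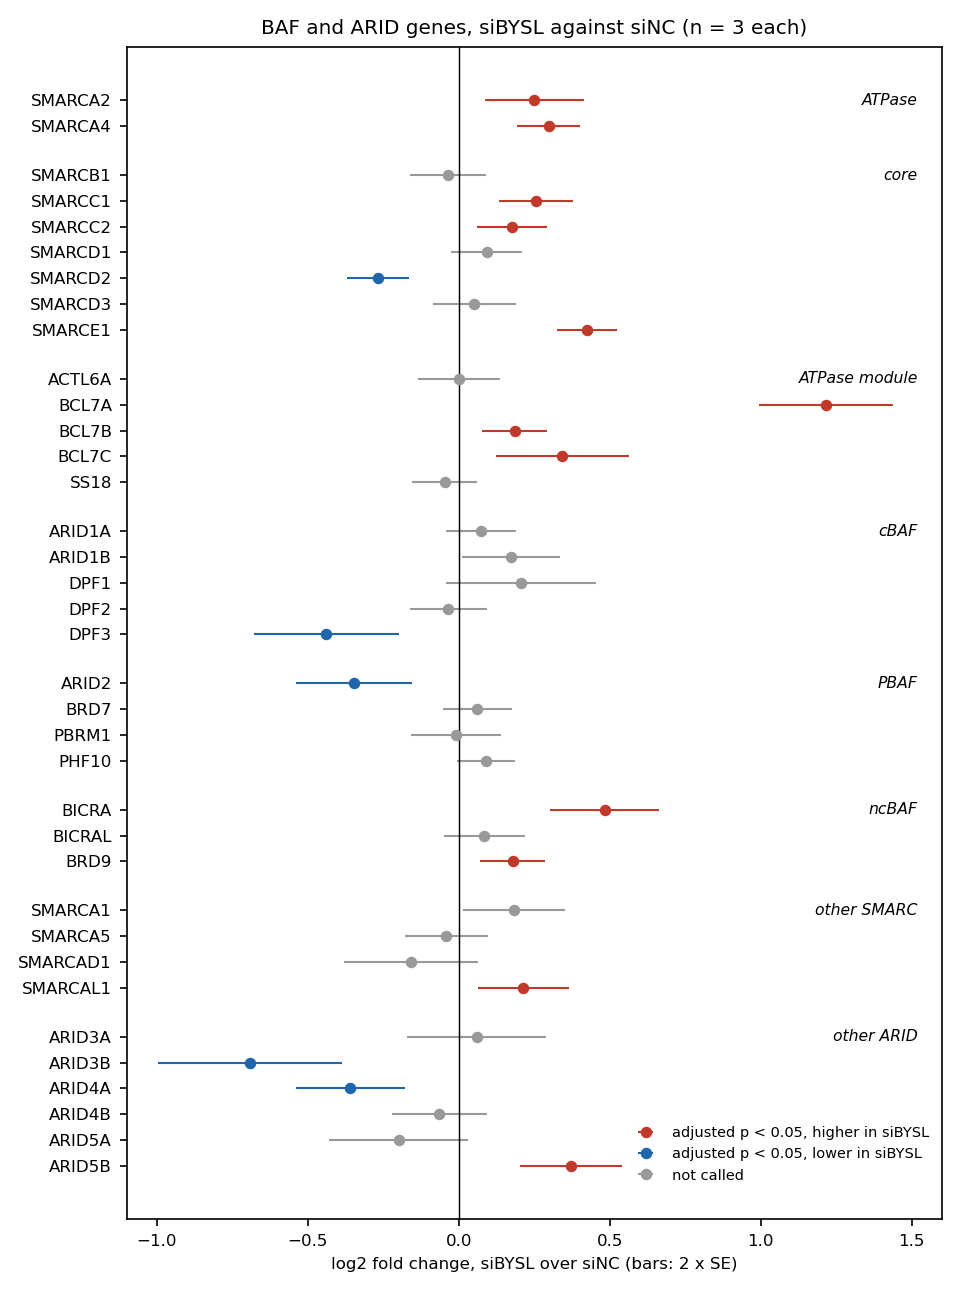
Log2 fold change of each tested member, siBYSL over siNC, grouped by role in the remodelling complexes; bars span 2 standard errors on each side, and colour marks the call at an adjusted p under 0.05 over all genes. BCL7A stands alone at 1.22, ARID3B is the lowest at -0.69, and the other called members lie within 0.5 of zero.

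Both ATPase genes rose. SMARCA4 stood at 150.8, 138.2 and 148.9 CPM in siBYSL 1 to 3, against 118.2, 120.7 and 117.4 CPM in siNC 1 to 3 (log2 fold change 0.30, SE 0.0515, adjusted p = 0.00115). The groups did not overlap, and the lowest siBYSL library was still above all of siNC. SMARCA2 stood at 52.8, 48.8 and 41.9 CPM in siBYSL, against 41.3, 41.2 and 38.2 CPM in siNC (0.25, SE 0.0821, adjusted p = 0.0343). Here siBYSL 3 lay just above the highest siNC library, and without it the change was 0.34. SMARCA2 lost its call without any 1 of the other 5 libraries (siBYSL 1, siBYSL 2 and siNC 1 to 3; adjusted p 0.0744 to 0.148), whereas SMARCA4 kept it. Per kilobase of transcript, SMARCA4 made up 78.8% ± 2.09 of the pair in siBYSL and 78.3% ± 0.621 in siNC, so the balance between the alternative ATPases differed by less than the spread between libraries. SMARCA4 (ENSG00000127616.20) lies on chromosome 19 from 10960825 to 11079426, and SMARCA2 (ENSG00000080503.24) on chromosome 9 from 1980290 to 2193624, both on the plus strand of GRCh38 by GENCODE 29.

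Among the 7 core genes, 3 rose, SMARCD2 fell and 3 were not called. SMARCE1 encodes BAF57, the HMG-domain subunit of cBAF and PBAF that contacts DNA. It stood at 127.7, 121.0 and 129.7 CPM in siBYSL, against 94.8, 94.5 and 92.6 CPM in siNC (log2 fold change 0.42, SE 0.0498, adjusted p = 9.7e-05). The groups lay well apart, and the gene kept its call without any single library. SMARCC1 encodes BAF155, a scaffold on which the core is built. It stood at 99.8, 94.1 and 86.0 CPM in siBYSL, against 77.5, 79.6 and 77.3 CPM in siNC (0.26, SE 0.0608, adjusted p = 0.00734). All 3 siBYSL libraries were higher, siBYSL 3 the least. Its paralogue SMARCC2 (BAF170) stood at 69.5, 64.7 and 64.5 CPM in siBYSL, against 57.3, 61.6 and 56.9 CPM in siNC (0.18, SE 0.0583, adjusted p = 0.0349). Its groups did not overlap. The call was lost without siBYSL 1, siBYSL 2, siNC 1 or siNC 3 (adjusted p 0.0728 to 0.155), with no filter on low counts (0.0617) and with the DESeq2 Wald test (0.057). Exons of SMARCC2 also share 514 bases with MYL6 on the opposite strand, a gene with 140363 counts over the 6 libraries where SMARCC2 had 11015; the labels do not say whether counting used strand.

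The SMARCD genes encode the BAF60 proteins, 3 alternative core subunits that link the complex to transcription factors, and they did not move together. SMARCD2 stood at 49.8, 49.1 and 48.2 CPM in siBYSL, against 59.2, 58.2 and 59.8 CPM in siNC (log2 fold change -0.27, SE 0.0516, adjusted p = 0.00222). Libraries within a group differed little and the groups did not overlap. SMARCD1 averaged 66.3 ± 3.04 CPM in siBYSL and 62.2 ± 2.84 CPM in siNC (0.09, adjusted p = 0.244), and SMARCD3 averaged 17.3 ± 0.532 and 16.6 ± 0.417 CPM (0.05, adjusted p = 0.592). Per kilobase, SMARCD1 made up 40.5% ± 1.19 of the 3 in siBYSL and 36.2% ± 1.4 in siNC, while SMARCD2 made up 40.4% ± 0.419 and 46.3% ± 0.856. Thus, per kilobase, SMARCD1 and SMARCD2 were level in siBYSL, and SMARCD2 was ahead in every siNC library. This order rests on division by the longest annotated transcript. In CPM, SMARCD1 was above SMARCD2 in every library of both groups. Which transcripts were expressed was not tested. SMARCB1, the tumour suppressor subunit that holds the nucleosome's acidic patch, averaged 75.5 ± 5.15 CPM in siBYSL and 77.3 ± 3.45 CPM in siNC, with overlapping groups (-0.03, adjusted p = 0.702).

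The ATPase module held the largest change in the family. BCL7A (ENSG00000110987.9, chromosome 12 from 122019422 to 122062044, plus strand of GRCh38) encodes a small subunit that sits with the ATPase and the nucleosome, and was first found rearranged in lymphoma. It stood at 16.8, 16.1 and 14.3 CPM in siBYSL, against 7.80, 6.60 and 5.93 CPM in siNC (log2 fold change 1.22, SE 0.11, adjusted p = 2e-05). The lowest siBYSL library was far above the highest siNC library. With any 1 of the 6 libraries left out, the change was 1.125 to 1.33 and the adjusted p at most 0.000333. The other BCL7 genes also rose, by less. BCL7C stood at 34.2, 37.2 and 47.5 CPM in siBYSL, against 33.4, 28.97 and 31.3 CPM in siNC (0.34, SE 0.11, adjusted p = 0.0308). Its highest library was siBYSL 3, its lowest siBYSL library barely passed siNC 1, and the change was 0.20 without siBYSL 3 (adjusted p = 0.0145). It lost its call without siNC 2 or siNC 3 (adjusted p 0.0924 to 0.121).

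BCL7B stood at 49.7 CPM in each of the 3 siBYSL libraries, against 42.5, 45.0 and 43.6 CPM in siNC (log2 fold change 0.19, SE 0.0538, adjusted p = 0.02). It was the steadiest member within siBYSL, and its call was lost without siBYSL 2, siNC 1 or siNC 3 (adjusted p 0.0705 to 0.0968) and with no filter (0.0595). Although BCL7A had the largest fold change, it was the least abundant of the 3 per kilobase, at 5.73% ± 0.789 of their sum in siBYSL and 3% ± 0.388 in siNC. BCL7B made up 57.1% ± 3.39 in siBYSL and 61.2% ± 2.39 in siNC, and BCL7C 37.1% ± 4.18 and 35.8% ± 2.18. The remaining genes of the module, ACTL6A (BAF53A, an actin-related protein) and SS18 (the partner in the fusions of synovial sarcoma), were not called. ACTL6A averaged 90.5 ± 7.9 CPM in siBYSL and 90.5 ± 3.35 CPM in siNC, and SS18 averaged 106.8 ± 5.69 and 110.3 ± 0.995 CPM (adjusted p = 0.996 and 0.526).

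**Figure D2:**
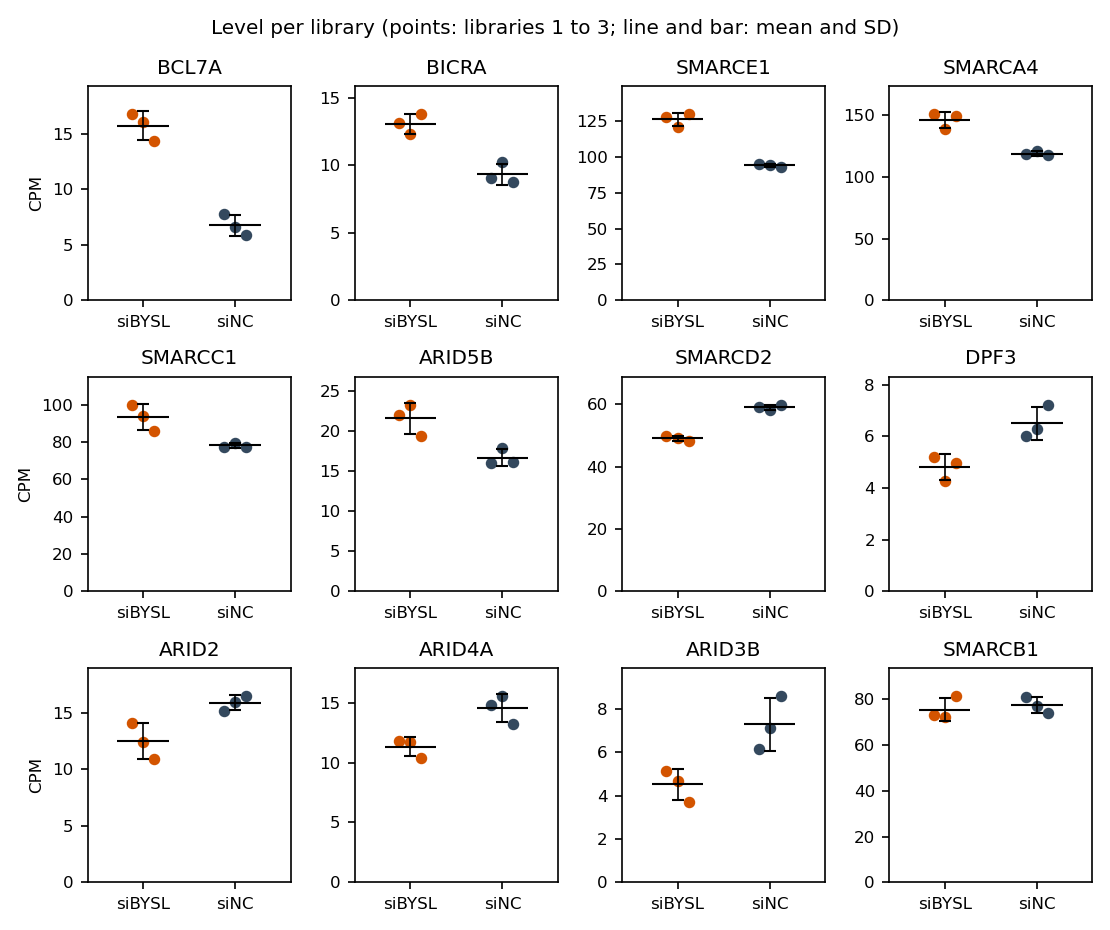
CPM of 12 members in each library, with siBYSL left of siNC, points for libraries 1 to 3 in order from left to right, and a line and bar for mean and SD. BCL7A, BICRA and SMARCE1 show clear gaps between groups, SMARCD2 shows tight and separate groups in the opposite direction, and SMARCB1 is included as a core subunit whose groups overlap.

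No cBAF-specific gene rose and 1 of 5 fell. The large DNA-binding subunits ARID1A and ARID1B were not called. ARID1A averaged 60.3 ± 2.31 CPM in siBYSL and 57.3 ± 2.5 CPM in siNC (log2 fold change 0.07, adjusted p = 0.353). ARID1B averaged 16.5 ± 1.47 and 14.7 ± 0.161 CPM, with all siBYSL libraries above siNC (0.17, adjusted p = 0.119). DPF3, which encodes a subunit with PHD fingers that read acylated histone H3, stood at 5.20, 4.27 and 4.97 CPM in siBYSL, against 6.01, 6.28 and 7.21 CPM in siNC (-0.44, SE 0.12, adjusted p = 0.0149). The groups did not overlap, but the gene was among the least abundant members, and its call was lost without siBYSL 2 or siNC 3 (adjusted p 0.0736 to 0.0784). Its paralogue DPF2 held most of the DPF transcripts per kilobase, 83.4% ± 0.838 in siBYSL and 83.7% ± 1.02 in siNC, and was not called (-0.03, adjusted p = 0.708). DPF1 averaged 6.5 ± 0.664 CPM in siBYSL and 5.65 ± 0.722 CPM in siNC (0.20, adjusted p = 0.221).

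In PBAF, ARID2 fell and the other 3 genes were not called. ARID2, the ARID subunit particular to PBAF, stood at 14.1, 12.4 and 10.9 CPM in siBYSL, against 15.2, 15.9 and 16.5 CPM in siNC (log2 fold change -0.35, SE 0.0962, adjusted p = 0.016). The groups did not overlap, with siBYSL 1 close to siNC 1. Its lowest library was siBYSL 3, and the change was -0.265 without siBYSL 3. The call was lost without siBYSL 2, siNC 2 or siNC 3 (adjusted p 0.052 to 0.0719) and when libraries were scaled by their totals alone. PBRM1 (polybromo, with a row of bromodomains) averaged 88.5 ± 8.99 CPM in siBYSL and 89.1 ± 4.39 CPM in siNC, and the bromodomain gene BRD7 averaged 56.2 ± 2.87 and 53.8 ± 0.216 CPM (adjusted p = 0.929 and 0.424). PHF10 averaged 123.1 ± 3.26 CPM in siBYSL and 115.6 ± 1.86 CPM in siNC, every siBYSL library being higher (0.09, adjusted p = 0.163).

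Of the 3 ncBAF genes, BICRA and BRD9 rose. BICRA (GLTSCR1, ENSG00000063169.11, chromosome 19 from 47608196 to 47703277, plus strand) encodes the scaffold that defines the complex. It stood at 13.1, 12.3 and 13.8 CPM in siBYSL, against 9.05, 10.2 and 8.79 CPM in siNC (log2 fold change 0.48, SE 0.0903, adjusted p = 0.00183). The groups were clearly separate, and the call held without any single library. BRD9, the bromodomain subunit, stood at 55.7, 56.3 and 58.2 CPM in siBYSL, against 50.7, 51.4 and 48.4 CPM in siNC (0.18, SE 0.0543, adjusted p = 0.025). Its groups did not overlap, but its call was lost without siBYSL 2 or any 1 siNC library (adjusted p 0.0579 to 0.133), with no filter (0.0665) and with the DESeq2 Wald test (0.0503). BICRAL, the paralogue of BICRA, averaged 16.6 ± 0.273 CPM in siBYSL and 15.7 ± 0.244 CPM in siNC (0.09, adjusted p = 0.354). Per kilobase, BICRA thus made up 47.3% ± 1.01 of the pair in siBYSL and 40.4% ± 1.8 in siNC, and the shares of the libraries did not overlap.

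**Figure D3:**
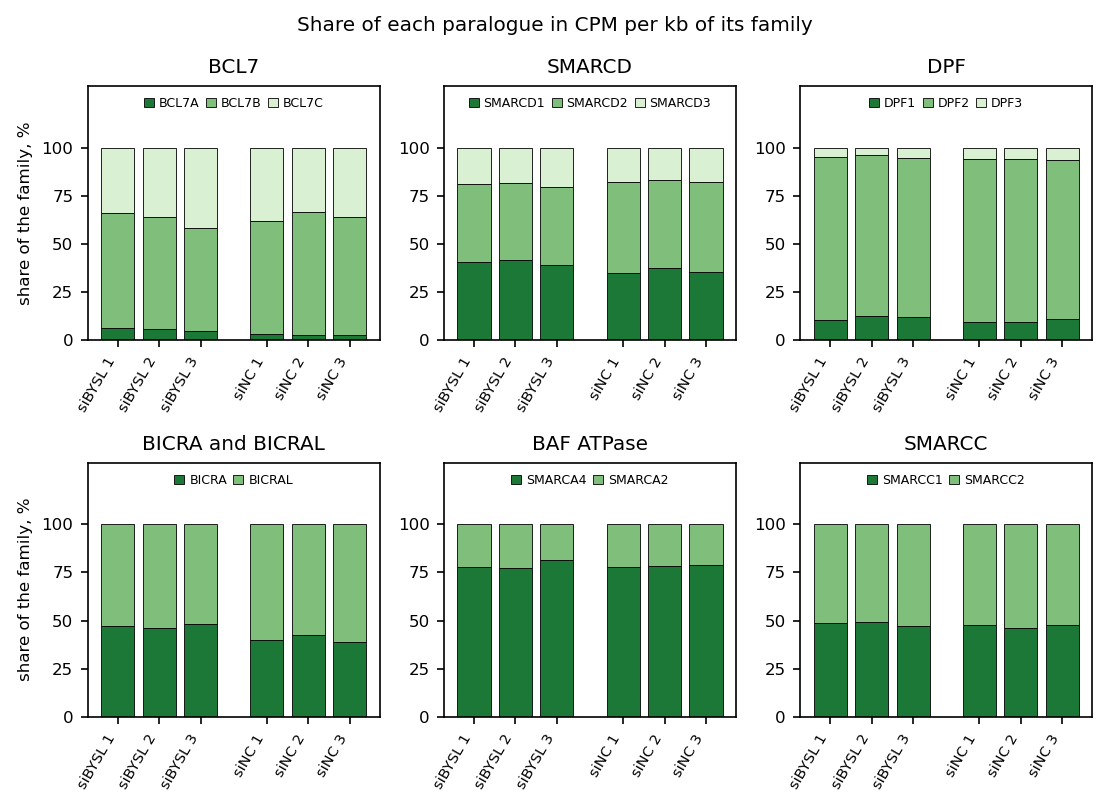
Share of each paralogue in the CPM per kilobase of its family, as stacked bars for siBYSL 1 to 3 and, to their right, siNC 1 to 3. BCL7A is the thin lowest band, thicker in siBYSL; the SMARCD1 and BICRA bands are also taller in siBYSL, and the bands of SMARCA4 and SMARCC1 are nearly level.

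Outside BAF, 1 of the 4 other SMARC genes was called. SMARCAL1, an annealing helicase that remodels stalled replication forks, stood at 20.6, 19.1 and 18.7 CPM in siBYSL, against 16.3, 18.0 and 16.1 CPM in siNC (log2 fold change 0.21, SE 0.0755). Its groups did not overlap. It lay just inside the threshold (adjusted p = 0.0458) and lost its call without siBYSL 1, siBYSL 2, siNC 1 or siNC 3 (adjusted p 0.0953 to 0.177), with no filter (0.0853) and with the DESeq2 Wald test (0.0867). SMARCA1 (SNF2L, an ISWI ATPase) had the smallest adjusted p of the members not called, at 92.7, 90.7 and 72.3 CPM in siBYSL, against 74.4, 76.3 and 74.5 CPM in siNC (0.18, SE 0.0839, adjusted p = 0.11). Its siBYSL 1 and 2 were well above siNC and siBYSL 3 was below, and the change was 0.29 without siBYSL 3. It was called with no filter (adjusted p = 0.0396) and with library totals (0.0413). The second ISWI ATPase, SMARCA5 (SNF2H), averaged 115.0 ± 10.9 CPM in siBYSL and 118.4 ± 3.71 CPM in siNC (-0.04, adjusted p = 0.669). SMARCAD1, a remodeller tied to heterochromatin and DNA repair, averaged 43.2 ± 7.33 and 48.3 ± 3.85 CPM (-0.16, adjusted p = 0.287), and siBYSL 3 was again the lowest library for both. Without it SMARCAD1 changed by -0.03 and SMARCA5 by 0.03.

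The 6 tested ARID genes outside BAF divided into 1 rise, 2 falls and 3 without a call. ARID3B, which binds AT-rich DNA and is known from embryonic and tumour growth, had the largest fall of the family. It stood at 5.13, 4.69 and 3.72 CPM in siBYSL, against 6.15, 7.10 and 8.59 CPM in siNC (log2 fold change -0.69, SE 0.152, adjusted p = 0.0048). The groups did not overlap, the level was low, and the call held without any single library. Its lowest library was siBYSL 3, and the change was -0.574 without siBYSL 3. Its paralogue ARID3A averaged 5.38 ± 0.579 CPM in siBYSL and 5.15 ± 0.192 CPM in siNC (0.06, adjusted p = 0.722). Per kilobase, the ratio of ARID3B to ARID3A was 1.18 ± 0.218 in siBYSL and 1.96 ± 0.3 in siNC.

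ARID4A and ARID4B encode partners of the retinoblastoma protein and of the Sin3 histone deacetylase complex. ARID4A stood at 11.8, 11.7 and 10.4 CPM in siBYSL, against 14.8, 15.6 and 13.2 CPM in siNC (log2 fold change -0.36, SE 0.0902, adjusted p = 0.00987). The groups did not overlap, and without siNC 2 the adjusted p was 0.0501. ARID4B averaged 31.4 ± 3.18 CPM in siBYSL and 32.8 ± 1.43 CPM in siNC (-0.06, adjusted p = 0.555). ARID5B works with the demethylase PHF2 and is known from fat cells and lymphoid leukaemia. It stood at 22.0, 23.2 and 19.4 CPM in siBYSL, against 16.0, 17.9 and 16.1 CPM in siNC (0.37, SE 0.0849, adjusted p = 0.00585), with no overlap between groups and a call that held without any single library. ARID5A, an RNA-binding member that stabilises inflammatory transcripts, averaged 6.74 ± 0.932 CPM in siBYSL and 7.71 ± 0.419 CPM in siNC (-0.20, adjusted p = 0.202).

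The siBYSL libraries differed among themselves in these genes. Measured as log2 CPM minus the siNC mean, the median member stood at 0.116 in siBYSL 1, 0.071 in siBYSL 2 and 0.049 in siBYSL 3, and the median over all genes at 0.010, 0.006 and 0.007. The number of the 36 members above their siNC mean was 28, 25 and 21 in these libraries, against 14, 24 and 15 in siNC 1 to 3. For the 26 BAF subunits the medians were 0.123, 0.124 and 0.068. For the 10 genes outside BAF they were 0.066, -0.045 and -0.131, so siBYSL 3 was lowest in both sets.

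**Figure D4:**
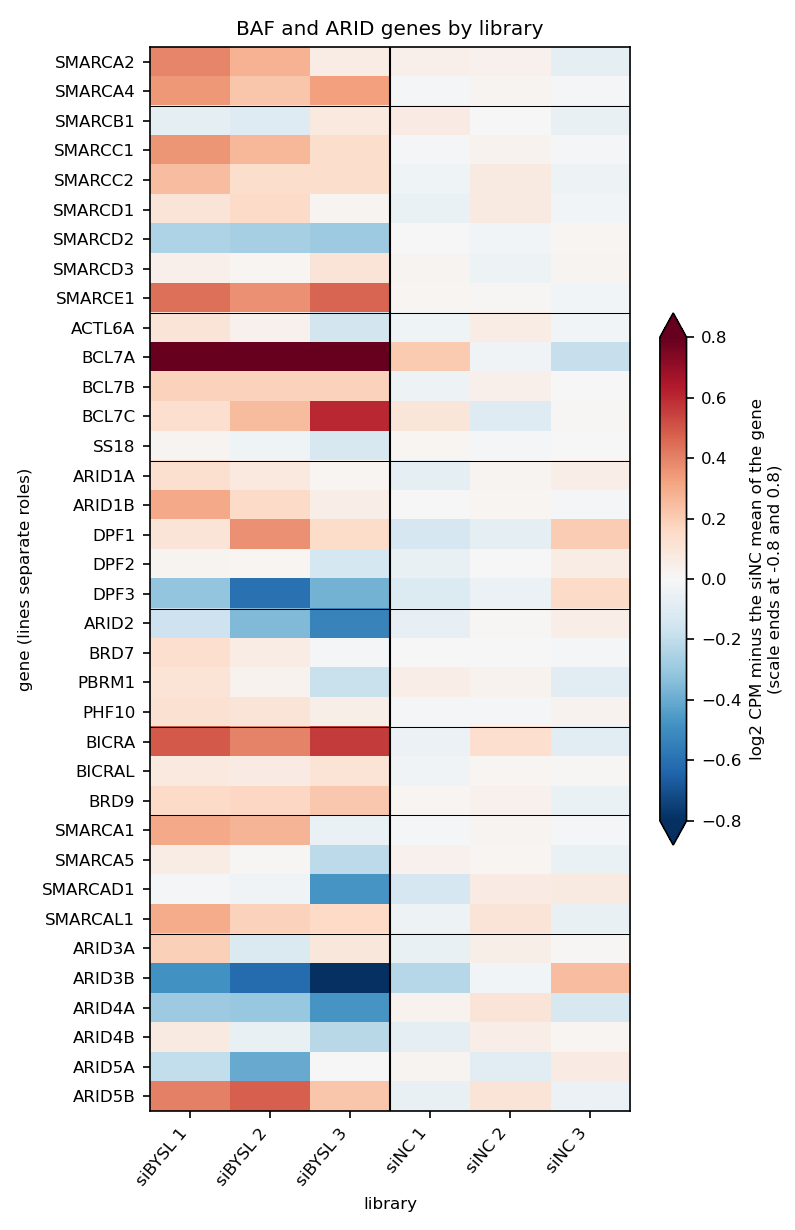
Log2 CPM minus the siNC mean of each member, with siBYSL libraries left of siNC libraries and lines between roles. The colour scale ends at -0.8 and 0.8, which BCL7A passes in all 3 siBYSL libraries and ARID3B in siBYSL 3. Red dominates the rows of ATPase, BCL7 and ncBAF genes, SMARCD2, DPF3, ARID2, ARID3B and ARID4A are blue in all 3 siBYSL libraries, and siBYSL 3 is paler or bluer than siBYSL 1 in SMARCA2, SMARCA1 and SMARCAD1.

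In level, measured as CPM per kilobase of the longest protein-coding transcript, the family spanned a wide range. ACTL6A was the most abundant, at 47.6 ± 4.16 in siBYSL and 47.6 ± 1.76 in siNC. SS18 followed at 31.3 ± 1.67 and 32.3 ± 0.292, then PHF10 at 28.01 ± 0.743 and 26.3 ± 0.424. BRD9 stood at 26.3 ± 0.615 in siBYSL and 23.3 ± 0.719 in siNC, SMARCA4 at 25.2 ± 1.17 and 20.5 ± 0.301, and BCL7B at 25.2 ± 0.0156 and 22.1 ± 0.631. In siBYSL the libraries of SMARCA4 overlapped those of both neighbours in this order, so the 3 are not ranked. SMARCE1 stood at 20.4 ± 0.738 in siBYSL and 15.2 ± 0.195 in siNC. ARID1A stood at 7.02 ± 0.27 in siBYSL and 6.68 ± 0.291 in siNC, and ARID1B at 1.53 ± 0.136 and 1.36 ± 0.0149. Among the called genes, ARID3B and DPF3 were the lowest in siBYSL and BCL7A in siNC. ARID3B stood at 1.06 ± 0.169 in siBYSL and 1.70 ± 0.288 in siNC, DPF3 at 1.06 ± 0.107 and 1.44 ± 0.139, and BCL7A at 2.52 ± 0.204 and 1.08 ± 0.152.

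The 5 genes of the whole table whose log2 CPM over the 6 libraries tracked BCL7A most closely were EDNRA, LDHD, CTDSPL, HERC5 and COLGALT2, with Pearson r from 0.997 to 0.999. EDNRA, the endothelin A receptor gene, averaged 3.53 CPM in siBYSL and 0.985 CPM in siNC, and COLGALT2, a collagen galactosyltransferase gene, averaged 43.8 and 27.5 CPM. The 6 points share libraries and depth and fall into 2 groups, so these r values describe likeness over these libraries and carry no test.

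Sequence just upstream of the start was read for 30 of the 36 tested members from RefSeq (GRCh38.p14, 250 bases before each start). SMARCC1, SMARCC2, ARID2, ARID3A, ARID3B and ACTL6A had no entry. Many windows overlap the gene as annotated by GENCODE. Among called members, those of SMARCA2, SMARCE1, BCL7A, BCL7B, BCL7C, BRD9, ARID5B and SMARCD2 lie wholly inside it. Those of SMARCA4, SMARCAL1, DPF3 and ARID4A lie partly inside, and only that of BICRA lies wholly before it. The values below therefore include bases of the genes themselves. A GC box, spelled GGGCGG or CCGCCC on the other strand, occurred in 19 of the 30 (63.3%) and in 66.4% of the windows of 11238 tested genes. It was present in 9 of the 10 windows of members called higher and in 1 of the 3 of members called lower. Over all genes, it was in 69% of windows of genes called higher and 67.8% of those called lower. A CCAAT box, spelled CCAAT or ATTGG, occurred in 12 of the 30 (40%) and in 35% of all windows. Of members called higher, 2 of 10 windows had it, and of members called lower, 2 of 3. Over all genes, the box was in 33.6% of windows of genes called higher and 36.2% of those called lower.

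The median GC content was 73% in windows of members called higher, 59.2% in those of members called lower and 64.8% over all genes. Over all genes called higher it was 66%, and over all genes called lower 64.8%. The BCL7A window, one of those inside the gene, had a GC content of 82.4%, with 38 CpG and 2 GC boxes. BICRA is shown as a member that rose and DPF3 and ARID4A as members that fell, with GC and CCAAT boxes in capitals and each stretch ending before the first annotated GENCODE 29 exon of the gene. They are chr19:47607946-47608195 (plus strand, BICRA), chr14:72894117-72894351 (minus strand, DPF3) and chr14:58298305-58298384 (plus strand, ARID4A).
BICRA upstream: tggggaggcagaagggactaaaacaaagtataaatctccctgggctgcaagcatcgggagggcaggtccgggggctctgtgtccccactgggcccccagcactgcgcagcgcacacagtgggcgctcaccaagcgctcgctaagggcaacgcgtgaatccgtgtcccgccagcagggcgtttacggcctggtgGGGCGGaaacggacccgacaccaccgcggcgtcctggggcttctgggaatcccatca
DPF3 upstream: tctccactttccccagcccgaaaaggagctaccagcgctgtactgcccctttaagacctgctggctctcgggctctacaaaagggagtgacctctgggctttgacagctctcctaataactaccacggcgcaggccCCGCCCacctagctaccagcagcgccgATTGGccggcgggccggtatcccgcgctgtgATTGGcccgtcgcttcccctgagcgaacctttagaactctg
ARID4A upstream: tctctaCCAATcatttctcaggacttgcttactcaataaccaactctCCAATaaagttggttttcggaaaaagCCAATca
The BICRA stretch holds 1 GC box and no CCAAT box, and the DPF3 stretch holds 1 GC box and 2 CCAAT boxes. The full ARID4A window has 6 CCAAT boxes and no GC box, with a GC content of 45.2%; 3 of these boxes lie in the stretch shown. With 3 windows among members called lower, these counts describe the sequences only, and a motif match is not evidence of binding.

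Exons of some members overlap those of a neighbouring gene, and reads there cannot be assigned with certainty. BRD7 shares 3593 exon bases (42.31% of its own) with ADCY7 on the opposite strand, and ADCY7 was not called (log2 fold change -0.02, adjusted p = 0.866). ARID4B shares 1603 (14.48%) with RBM34 on the same strand, which was not called either (0.10, adjusted p = 0.157). BRD9 shares 182 (1.9%) with TRIP13 on the opposite strand, which fell by 0.42 while BRD9 rose. BCL7A shares 642 (9.78%) with AC069503.1, a lincRNA gene with 49 counts over the 6 libraries, where BCL7A had 2007. SMARCE1 shares 3697 (19.79%) with AC073508.2 on the same strand, a gene with 17 counts where SMARCE1 had 19466. PHF10 shares 184 (3.32%) with C6orf120 on the opposite strand, which was called higher (0.264, adjusted p = 0.0255) while PHF10 was not called.

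Genes that share a domain or a complex with the family were read from the same test. That test called 18.5% of all genes higher and 18.4% lower. Of 4 further ARID-domain genes, JARID2, a cofactor of Polycomb complex PRC2, rose to 34.7 ± 3.02 CPM in siBYSL, against 23.0 ± 1.01 CPM in siNC (log2 fold change 0.59, SE 0.076, adjusted p = 0.000169), and the other 3 were not called. Of 4 BAF-associated genes tested, 1 rose and 1 fell. ACTB, the actin that is also a BAF subunit, averaged 5508 ± 175 CPM in siBYSL and 6305 ± 137 CPM in siNC (-0.20, SE 0.0531, adjusted p = 0.0148). BCL11A, a zinc-finger transcription factor that joins BAF, averaged 0.51 ± 0.131 CPM in siBYSL and 0.221 ± 0.0375 CPM in siNC (1.18, SE 0.358, adjusted p = 0.0246), a level under 1 CPM in every library.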

How the data were processed

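RNA was measured in 3 siBYSL and 3 siNC cultures of MDA-MB-231. The deposited table holds raw counts per gene, as whole numbers; HISAT2, DESeq2 and GRCh38.p13 are named without role or version, per the submitters' processing notes. How reads were counted, with or without strand, is not given in the sources used here, so overlapping genes may share reads. Members and lists were chosen with earlier results of these data known.

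In R 4.3.3, counts were filtered with filterByExpr, scaled with TMM factors and compared with edgeR 4.0.16 (quasi-likelihood F test, robust, group only; Benjamini-Hochberg over 16412 genes; threshold 0.05). All adjusted p come from this test unless another is named. The SE is the size of the log2 fold change over the root of F. The biological coefficient of variation was 0.0649, and p-values reflect spread between these cultures. CPM use TMM-scaled totals. Values per library were given for called members, the ATPases and the members nearest to the threshold on each side. UTRs, coordinates and transcript lengths follow GENCODE 29; the submitters may have used another release. Alternatives were other scalings and filters, DESeq2 1.42.0, limma 3.58.1 (voom), a replicate block and each library left out.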

Additional observations from a re-analysis of the deposited data

How the results depend on the processing

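Of the 17 called members, 8 kept their call under all 13 alternative settings (ARID3B, ARID5B, BCL7A, BICRA, SMARCA4, SMARCC1, SMARCD2 and SMARCE1), and 0 changed sign. Calls higher and lower were 15 and 4 with library totals alone, where 25% and 12.1% of all genes were called. They were 9 and 5 with no filter (10.7% and 11.8% of all genes) and with the DESeq2 Wald test (16.1% and 17.2%). They were 12 and 5 with DESeq2 size factors (18.3% and 18.8%), limma-voom (18.3% and 18.6%) and a filter of 1 CPM in 3 libraries (21.1% and 20.1%). Leaving out 1 library gave 6 to 16 higher and 3 to 6 lower, beside 12.6% to 23.5% and 12.5% to 24.3% of all genes. With library totals, which shift all genes by 0.078, the median member stood at 0.157 instead of 0.079, and 67.4% of all calls were higher instead of 50%. With a replicate block, 8 members were higher and 5 lower, of 5566 genes called, when 17.1% and 16.8% of all genes were called in those directions. BCL7B, BRD9, SMARCAL1 and SMARCC2 were then not called (adjusted p 0.0564 to 0.0747). Deviations of same-numbered libraries from their group means correlated weakly (r -0.129, 0.0596 and 0.0106). With 3 libraries per group, these r values cannot decide whether the numbers pair the cultures. Only uncalled members changed sign. ACTL6A (0.001) gave -0.003 with DESeq2 size factors, the block and the Wald test, -0.013 with no filter, -0.002 with limma-voom and -0.052 to 0.068 without single libraries. Library totals turned ARID4B to 0.015, DPF2 to 0.045, PBRM1 to 0.069, SMARCA5 to 0.038, SMARCB1 to 0.043 and SS18 to 0.032. Single libraries left out gave -0.011 to 0.144 for ARID3A, -0.136 to 0.005 for ARID4B, -0.065 to 0.017 for DPF2, -0.072 to 0.068 for PBRM1 and -0.092 to 0.034 for SMARCA5. The cause was not tested. Guide-seed sites lay in 3 members, or 4 with all annotated 3′ UTRs. Counts were too low to test ARID3C. The widest SE belonged to ARID3A, ARID3B, ARID5A, DPF1 and DPF3 (0.115 to 0.152), all of low level. BCL7A (0.110), also low in siNC, and the more abundant BCL7C (0.110) and SMARCAD1 (0.111) came close. The part of depth in these errors was not tested.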

Other observations

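Other remodelling families were read over 85 genes of lists kept apart from BAF and ARID genes. In siBYSL, 13 were called higher (15.3%) and 17 lower (20%), with a median log2 fold change of 0.004. These shares lay near those of all 16412 genes tested, of which 18.5% were called higher and 18.4% lower. Of 30 INO80, SRCAP and TIP60 genes, 2 rose (6.67%) and 6 fell (20%). INO80C averaged 22.0 ± 1.87 CPM in siBYSL and 37.2 ± 2.4 CPM in siNC (-0.76, adjusted p = 4.5e-05), the acetyltransferase gene KAT5 averaged 56.3 ± 1.78 and 69.5 ± 1.29 CPM, and the AAA+ ATPase gene RUVBL1 averaged 70.2 ± 1.9 and 87.7 ± 4.38 CPM. Of 20 CHD and NuRD genes, 5 rose (25%) and 3 fell (15%). MBD3, a core subunit of NuRD, averaged 95.5 ± 9.54 CPM in siBYSL and 148.5 ± 6.41 CPM in siNC (-0.64, adjusted p = 6.9e-05), and MTA1 averaged 53.7 ± 0.95 and 39.8 ± 1.66 CPM. Of 10 PRC2 genes, 2 rose (20%) and 3 fell (30%), among them EED, at 39.2 ± 2.06 CPM in siBYSL and 56.4 ± 0.478 CPM in siNC. Of 10 ISWI partner genes, 3 rose (30%) and 1 fell (10%), POLE3, at 92.8 ± 5.26 CPM in siBYSL and 126.9 ± 3.06 CPM in siNC. Of 11 other SNF2 ATPase genes, 1 rose (HLTF, 0.35) and 3 fell, with RAD54B at -0.51. These were 9.09% and 27.3% of that list.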
